A study of Homo sapiens with 74 samples.

Results

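The regions described here are 5450 stretches of open chromatin that lost accessibility in HAP1 cells without SMARCA4 and also in HAP1 cells without ARID1A. They are 5450 of the 145536 regions of the knockout count table, or 3.74%, and 4.83% of the 112839 autosomal regions that had a mean CPM (read count scaled to the library's total) of at least 2 in wild-type replicates 1 and 2. A region was taken when the mean of log2(CPM + 0.5) fell by at least 1 from those wild-type libraries in the SMARCA4 knockouts and by at least 1 in the ARID1A knockouts. Of the 112839 eligible regions, 13012 fell that far in the SMARCA4 mean and 7727 in the ARID1A mean. The regions were chosen by the values of those 10 libraries, which are therefore given as a description and without a test.

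HAP1 is a near-haploid human line derived from a chronic myeloid leukaemia, and the assay was ATAC-seq: a transposase inserts adapters into open DNA, whose fragments are then sequenced. The knockout table held 56 libraries: 26 clones of 22 knocked-out BAF genes with 2 libraries each, and 4 wild-type libraries. SMARCA4 (clones 4 and 6), ARID1A (clones 3 and 10), ARID1B (clones 5 and 7) and BCL7B (clones 8 and 10) were each knocked out in a pair of clones and every other gene in a single clone, so that for most genes the loss of the gene and a property of the clone cannot be told apart. The knockdown table held 8 groups with 2 libraries each: wild-type cells with a control knockdown, with SMARCA4 knockdown, with ARID2 knockdown or with both, ARID2-knockout cells with a control or a SMARCA4 knockdown, and SMARCA4-knockout cells with a control or an ARID2 knockdown. By the form of their titles, ARID1B clone 5, BCL7B clone 10 and SMARCC2 clone 10 belong with wild-type replicates 5 and 6 in a second set, and all other clones with replicates 1 and 2. Totals were 5085811 to 12422345 counts per library in the knockout table and 5355899 to 12432292 in the knockdown table, which left a median of 18 to 89 counts per library on the 5450 regions. The labels do not say whether replicates were grown as separate cultures, so each p-value is set against a spread that may be technical.

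BAF (SWI/SNF) complexes are ATP-driven remodellers that slide or evict nucleosomes, and enhancers in particular depend on them to stay open. SMARCA4 and SMARCA2 are the alternative ATPase subunits, SMARCC1 and SMARCC2 are core scaffold subunits, and SMARCD1, SMARCD2 and SMARCD3 are alternative core subunits. ARID1A and its paralogue ARID1B are found in the canonical BAF complex, as are DPF1, DPF2 and DPF3, whereas ARID2, PBRM1, BRD7 and PHF10 define PBAF and BRD9 the non-canonical complex.

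In wild-type replicates 1 and 2 the median of the 5450 regions was 7.19 and 7.06 CPM. It was 2.05 to 2.31 CPM in the 4 SMARCA4-knockout libraries and 2.46 to 2.71 CPM in the 4 ARID1A-knockout libraries. The share of all reads that lay in these regions went with it, from 4.68% and 4.53% in wild type to 1.34% to 1.46% without SMARCA4 and 1.57% to 1.73% without ARID1A. The median region fell by 1.46 on the log2 scale without SMARCA4 and by 1.27 without ARID1A, keeping 31.9% and 37.6% of its wild-type CPM. In the fit, 5432 were called lower without SMARCA4 and 5414 without ARID1A, where 13.9% and 10.3% of all regions were lower and 8% and 2.27% higher, and nothing is read from this since these contrasts chose the regions. At 3895 regions, 71.5%, the fall was the larger without SMARCA4. Falls of at least 1.5 in both knockouts were found at 934 regions, of at least 2 at 133 and of at least 3 at 2. The means over the clones chose the regions, so their values by clone are a description only: 3253 regions, 59.7%, fell by at least 1 in each of the 4 clones, 28 fell by less than 0.5 in at least 1 clone, and the SMARCA4 clones were 2 or more apart at 4 regions and the ARID1A clones at 3.

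Wild-type replicates 5 and 6 took no part in the choice. Their medians were 7.91 and 8.16 CPM, above those of replicates 1 and 2, and the median region was higher in them by 0.14 on the log2 scale. Against these libraries 3989 of the regions, 73.2%, were lower by at least 1 in both means, and 5331, 97.8%, were lower. The SMARCA4 and ARID1A means are those of the libraries that chose the regions as low, so these counts are a description only. The wild-type sets differed at single regions, 210 being lower by at least 1 in replicates 5 and 6 and 310 higher by at least 1.

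**Figure D1:**
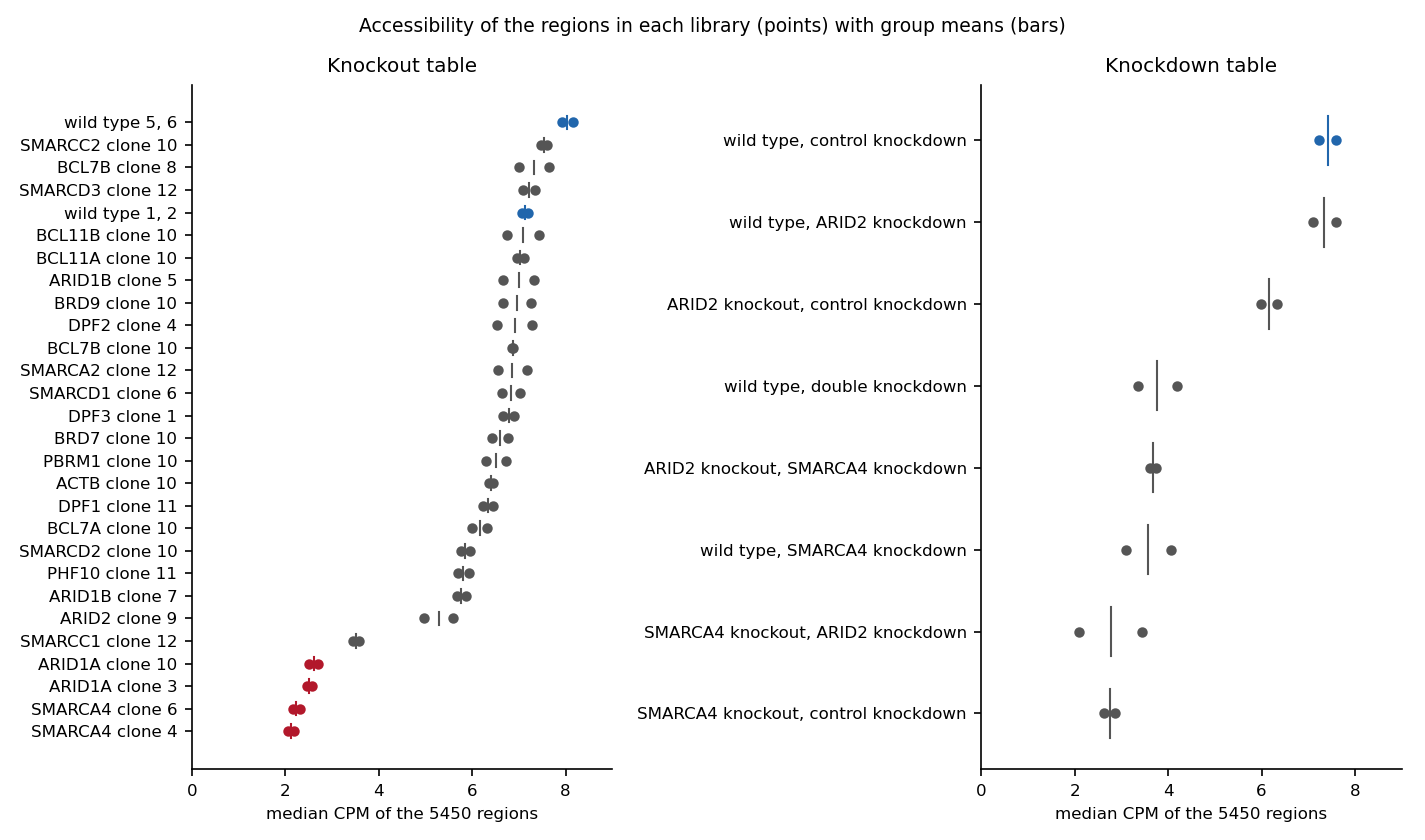
Median CPM of the 5450 regions (horizontal axis) in each library of the knockout table (left) and the knockdown table (right), with 1 point per library and a bar at the group mean. Red points are the knockouts that chose the regions, blue points wild type without a targeted knockdown. SMARCC1 clone 12 is the clone nearest to the SMARCA4 and ARID1A knockouts, and every library of the knockdown table with SMARCA4 knocked out or knocked down lies at or below 4.18 CPM.

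The region with the largest loss was chr21:28419401-28420301 (hg19, coordinates as the files give them). It had 31.4, 26.6, 39.4 and 36.3 CPM in wild-type replicates 1, 2, 5 and 6, 1.82, 1.03, 1.10 and 1.85 CPM in the SMARCA4 knockouts and 2.12, 1.88, 2.45 and 2.89 CPM in the ARID1A knockouts. Its falls of 3.94 and 3.39 were followed by those of chr10:65700147-65700787 (3.89 and 3.06) and chr3:163631982-163633001 (3.05 and 2.95). At the edge of the rule, chr4:190019987-190021083, chr1:187446150-187447186 and chr7:17713599-17714338 lay just inside, with smaller falls of 1.00 at 2-decimal precision. The regions chr6:118598550-118599544, chr10:113860378-113861074 and chr12:83507599-83508341 lay just outside it, with larger falls of 1.90, 1.44 and 1.36 and smaller ones that also round to 1.00.

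The knockdown table asks whether the same regions respond when SMARCA4 is reduced in other libraries. The labels name no clone for its SMARCA4-knockout cells, so these may be of a clone that chose the regions. In SMARCA4-knockout cells with a control knockdown, 3322 of the 5449 regions tested were lower than in wild-type cells with the same control, with a median log2 fold change of -1.48 (edgeR's quasi-likelihood test, Benjamini-Hochberg adjusted p of 0.05 over all 145617 regions; such regions are said to be called). That is 61.0% of the regions, against 8.26% of all regions tested. Of the 4172 regions with an unadjusted p under 0.05, 4169 were lower. SMARCA4 knockdown in wild-type cells lowered 2080 regions, 38.2% against a background of 4.96%, and raised 4 (0.773% of all regions rose), with a median of -1.04. The double knockdown lowered 1820, 33.4% against 4% of all regions, and raised 3 (0.618% of all regions), with a median of -0.98. In wild-type controls the median region had 7.22 and 7.60 CPM, with SMARCA4 knockdown 3.10 and 4.05, with the double knockdown 3.36 and 4.18, and in SMARCA4-knockout cells 2.63 and 2.87. The knockdown groups thus lay between the control and the knockout, and none of these ranges overlapped that of the control. Below 0 were 92.3% of the regions in the SMARCA4 knockdown, against 46.3% of all regions. Leaving out control replicate 1 or 2 left 1111 or 1139 regions lower in the SMARCA4 knockdown and 878 or 894 in the double knockdown, and leaving out knockdown replicate 1 or 2 left 906 or 1104 and 544 or 787, with 1 library in an arm. Without replicate 1 of the SMARCA4 knockout 2072 regions were lower there.

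The response in these libraries was also set out by the size of the fall that chose a region. These falls are values of the rule, so the shares by fall are a description only. Among regions whose smaller fall was between 1 and 1.25, 30.3% of 3061 were called lower in the SMARCA4 knockdown. The share was 42.7% of 1455 for falls of 1.25 to 1.5, 54.9% of 801 for 1.5 to 2 and 68.7% of 131 for 2 to 3. Over 5449 regions the fall in the SMARCA4 knockouts and the log2 fold change in the SMARCA4 knockdown had a Pearson r of -0.27 (Spearman's rho -0.28), and with the SMARCA4 knockout of the knockdown table an r of -0.51 (rho -0.47). These are correlations over regions, which are not independent replicates, and counts per region limit them. The shares by size of fall were not split by accessibility, and its part in them was not tested. The SMARCA4-knockout cells of the knockdown table may be of a clone that chose the regions.

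Because more counts make a call easier, the shares over the whole list were also set out by accessibility in wild-type replicates 5 and 6. At 8 to 16 CPM, 86.0% of 1834 regions were called lower in the SMARCA4 knockout of the knockdown table, against 22.0% of 13694 other eligible regions. In the SMARCA4 knockdown the shares were 56.7% and 13.1% at that level. Above 16 CPM they were 93.4% of 891 against 8.34% of 13878 in the knockout, and 60.2% against 3.87% in the knockdown. Below 4 CPM 11.0% of 907 regions were called in the knockout, against 0.882% of 52518 other eligible regions. In the knockdown 5.29% were called at this level, against 0.579%. The fitted changes were smaller there as well, with medians of -0.65 in the knockout and -0.48 in the knockdown, against -1.75 and -1.26 at 8 to 16 CPM, and the part of depth in the few calls was not tested.

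**Figure D2:**
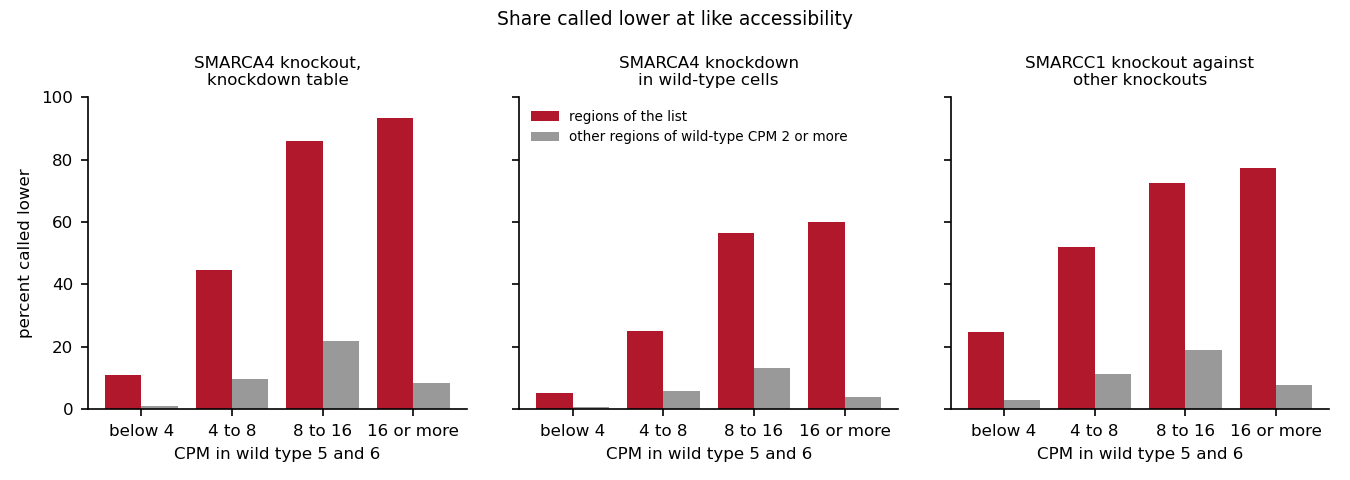
Percent of regions called lower (vertical axis) by CPM in wild-type replicates 5 and 6 (horizontal axis) in 3 comparisons. Red bars are the 5450 regions, grey bars the other autosomal regions of wild-type CPM 2 or more. At every level the red bar is the higher, with 56.7% against 13.1% at 8 to 16 CPM in the SMARCA4 knockdown.

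Single regions had the same or different levels in the knockdown and the knockout of SMARCA4. The region chr7:15285271-15286063 had 16.6 and 21.7 CPM in the wild-type controls, 1.45 and 2.64 with SMARCA4 knockdown, 1.83 and 2.01 with the double knockdown and 1.91 and 0.546 in SMARCA4-knockout cells. Its log2 fold change in the SMARCA4 knockdown was -3.32 ± 0.43 (SE; edgeR's quasi-likelihood test, adjusted p = 6.11e-07), the lowest among the regions above the median CPM whose libraries did not overlap. It was followed by chr13:82151540-82152171 at -3.30 ± 0.47 and chr12:88641639-88642315 at -3.29 ± 0.50.

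The region chr9:106007563-106008141 had 21.8 and 27.4 CPM in the controls, 19.3 and 15.9 with SMARCA4 knockdown and 27.4 and 17.4 with the double knockdown, and 0.478 and 1.5 in SMARCA4-knockout cells. Its fold change was -4.71 ± 0.51 in the knockout (adjusted p = 4.02e-10) and -0.49 ± 0.39 in the knockdown (adjusted p = 0.537, edgeR). Both fold changes rest on the same control libraries, and the difference between them was not tested. Among the most accessible regions that were not called in the SMARCA4 knockdown, chr3:19313719-19315366 had 50.7 and 56.7 CPM in the controls, 42.0 and 33.5 with SMARCA4 knockdown and 6.94 and 7.24 in the knockout. The other, chr12:73122736-73124412, had 57.9 and 62.2, 35.5 and 28.0, and 14.1 and 15.2 CPM in the same groups. The 3 regions with the largest rise in the SMARCA4 knockdown, chr14:70162211-70163164, chr11:117728214-117729038 and chr8:10766838-10767624, had log2 fold changes of 1.16, 1.15 and 1.13, and none of the 3 was called by DESeq2 or without either control replicate.

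ARID2 is the subunit that carries PBAF, and its knockdown gave no call at these regions. ARID2 knockdown in wild-type cells lowered 0 and raised 0 of the 5449 regions by edgeR's quasi-likelihood test, as for all 145617 regions, where 0% were called in either direction. The unadjusted p was under 0.05 for 321 regions (5.89%, against 4.24% of all regions), DESeq2 called 0 lower, and the median log2 fold change was -0.14. Adding ARID2 knockdown to SMARCA4 knockdown likewise left 0 called (311 at an unadjusted p under 0.05, DESeq2 0 lower, median 0.05), as did ARID2 knockdown in SMARCA4-knockout cells (434, DESeq2 0 lower, median -0.02). The median CPM with ARID2 knockdown was 7.09 and 7.59 in wild-type cells and 2.09 and 3.45 in SMARCA4-knockout cells, which overlapped the groups with the control knockdown in each case.

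With a control knockdown, ARID2-knockout cells had medians of 5.98 and 6.33 CPM, below both wild-type controls. In a fit with the replicate number as a block, whose meaning the labels do not give, 537 regions were lower, 9.86%. In the main fit, without a block, 189 regions were lower, 3.47% against 0.374% of all regions. There 1 was higher (0.0446% of all regions), and the median was -0.41. Leaving out any 1 of the 4 libraries left 39 to 66 regions lower: 66 or 63 without control replicate 1 or 2, and 39 or 62 without ARID2-knockout replicate 1 or 2. In the knockout table, ARID2 clone 9 was lower at 900 regions, 16.5% against 3.07%, and higher at 201, 3.69% against 2.91%, with a median of -0.23 against the mean of the other set-1 knockouts, a reference that holds no library of the rule. These tables share no library, but the labels name no clone for the ARID2-knockout cells of the knockdown table, which may be the same clone. Of the 189 regions lower in ARID2-knockout cells, 133 were among the 900, which is 70.4% of the first list and 14.8% of the second. The shares of all the tested regions were 16.5% in clone 9 and 3.47% in the ARID2-knockout cells.

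The lowest region in the ARID2 knockout was chr7:146976625-146977607, with 1.81 and 2.18 CPM against 32.3 and 37.9 CPM in the controls (log2 fold change -4.34 ± 0.47, adjusted p = 3.09e-09, edgeR). ARID2 knockdown left it at 31.2 and 26.4 CPM. In wild-type replicates 1 and 2 it had 10.1 and 8.95 CPM and in replicates 5 and 6 31.8 and 34.8 CPM, so that wild-type libraries themselves did not overlap there. The next was chr7:146688390-146689319, with 3.76 and 2.18 against 24.7 and 33.0 CPM (-3.44 ± 0.39, adjusted p = 2.24e-08).

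In ARID2-knockout cells SMARCA4 knockdown took the median from 5.98 and 6.33 to 3.61 and 3.73 CPM. In a fit with the replicate number as a block, whose meaning the labels do not give, it lowered 621 regions, 11.4%. In the main fit, without a block, it lowered 100 regions, 1.84% against 0.139% of all regions (0.0556% rose), with a median of -0.58. Of the 1705 with an unadjusted p under 0.05, 1672 were lower. Without ARID2-knockout control replicate 1, 12 regions were lower, and without replicate 2 of the SMARCA4 knockdown in these cells 10. Of the 100 regions 88 were also among the 2080 lowered by SMARCA4 knockdown in wild-type cells, 88% of the first list and 4.23% of the second. The contrasts share no library. Of all the tested regions of the list, SMARCA4 knockdown lowered 38.2% in wild-type cells and 1.84% in ARID2-knockout cells. The difference between the SMARCA4 knockdown effects in the ARID2-knockout and wild-type backgrounds had a median of 0.46 over these regions, where a positive value is a smaller fall in ARID2-knockout cells. By edgeR's interaction test 0 regions were called (651 at an unadjusted p under 0.05, 11.9% against 5.19% of all regions). DESeq2 called 0, and the fit with the replicate block 1. The levels reached overlapped, 3.10 and 4.05 CPM in wild-type and 3.61 and 3.73 CPM in ARID2-knockout cells, whereas the levels before the knockdown did not. Whether the starting level bears on the size of the effect was not tested.

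The region of largest loss, chr21:28419401-28420301, was one of those already low before the knockdown. It had 29.4 and 31.4 CPM in wild-type controls and 8.82 and 7.40 with SMARCA4 knockdown (-1.92 ± 0.36, adjusted p = 0.000198). In ARID2-knockout cells it had 2.41 and 4.35 CPM with the control knockdown (-3.40 ± 0.41, adjusted p = 6.18e-08, edgeR) and 1.31 and 4.21 with SMARCA4 knockdown (-0.10 ± 0.47, adjusted p = 0.975, edgeR). At chr2:194132121-194132946 the fall came with SMARCA4 knockdown: 12.9 and 16.7 CPM in wild-type controls, 10.2 and 8.52 in ARID2-knockout controls, and 1.31 and 0.751 CPM after SMARCA4 knockdown in ARID2-knockout cells. This was the largest fall in that background, -3.07 ± 0.47 (adjusted p = 0.000193, and 0.0505 without replicate 2 of the knockdown, edgeR).

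**Figure D3:**
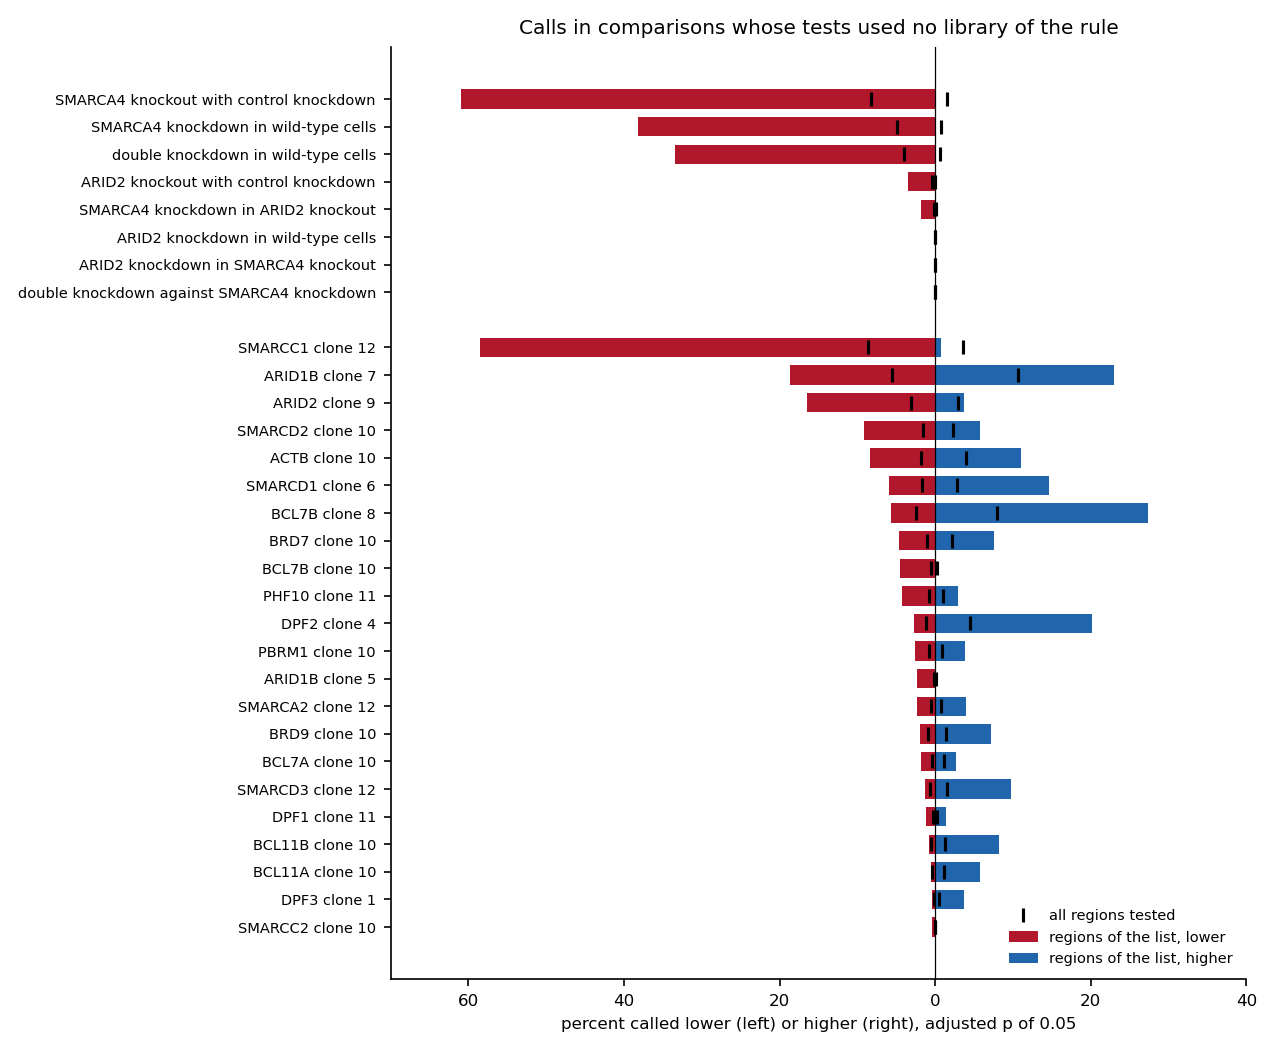
Percent of the regions called lower (red, to the left) and higher (blue, to the right) at an adjusted p of 0.05 in each comparison, with black ticks at the percent of all regions tested. The upper block is the knockdown table, the lower the knockout table. The 3 longest bars of the upper block are the SMARCA4 knockout (61.0%), the SMARCA4 knockdown (38.2%) and the double knockdown (33.4%), and SMARCC1 clone 12 (58.5%) leads the lower block.

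Among the other 20 knocked-out genes the core scaffold subunit SMARCC1 stood closest to SMARCA4 and ARID1A. SMARCC1 clone 12 had medians of 3.45 and 3.59 CPM over the 5450 regions, where 42 libraries of the remaining knockouts had 4.97 to 7.65 CPM (median 6.67). Against the mean of the other set-1 knockouts, without wild type and without the clones of the rule, 3188 regions were lower, 58.5% against 8.59% of all regions, 41 were higher, 0.752% against 3.54%, and the median was -0.80. Leaving out replicate 1 or 2 of this clone left 1834 or 2041. At 8 to 16 CPM in wild-type replicates 5 and 6, 72.6% of the regions and 19.0% of the other eligible regions were lower.

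Regions lost in a single one of the chosen knockouts were also tested in the SMARCC1 clone. Of 627 regions that fell by at least 1 without ARID1A and by less than 0.5 without SMARCA4, 43.1% were lower, and of 2257 regions with the reverse pattern 20.8%. In the SMARCA4 knockdown the shares of these lists were 9.89% and 21.4%, beside 38.2% of the regions lost in both. The accessibility of the lists differs too, with a median in wild-type replicates 5 and 6 of 8.00 CPM for the regions lost in both, 7.30 for those lost without SMARCA4 alone and 5.68 for those lost without ARID1A alone, and its part in these shares was not tested.

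The lists of regions lower without SMARCC1 and with less SMARCA4 were compared. Of the 2080 regions lower in the SMARCA4 knockdown, 1616 were among the 3188, which is 77.7% of the first list and 50.7% of the second. Of the 3322 lower in SMARCA4-knockout cells with a control knockdown, 2333 were, 70.2% and 73.2%. Of the whole list, 58.5% were lower in the SMARCC1 clone, 38.2% in the SMARCA4 knockdown and 61.0% in those knockout cells. The part of accessibility in the overlaps was not tested. The 3188 regions had a median of 9.95 CPM in wild-type replicates 5 and 6 and a width of 767 base pairs, and the 2221 that were not called had 5.65 CPM and 697 base pairs. Some regions kept their level: chr10:65700147-65700787, the region with the second largest loss, had 19.5 and 24.3 CPM in the SMARCC1 clone and 26.6 and 25.7 CPM in wild-type replicates 1 and 2 (-0.09 ± 0.15 against the other knockouts, adjusted p = 0.773, edgeR), but 1.56 and 2.05 CPM in the SMARCA4 knockout of the knockdown table. At chr3:163631982-163633001 the same clone had 1.74 and 2.02 CPM against 22.4 and 18.3 in wild-type replicates 1 and 2 (-3.34 ± 0.24, adjusted p = 4.43e-25). The region chr11:11117270-11118314 rose in it, to 17.9 and 27.9 CPM against 11.3 and 9.58 in wild-type replicates 1 and 2. In addition 4 of the regions had no read in either SMARCC1 library, among them chr9:82543776-82545073, which had 5.09 to 16.4 CPM in the 42 other knockout libraries; a closed region and missing DNA cannot be told apart there.

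SMARCC2 is the other scaffold subunit. Its clone 10 had 7.47 and 7.61 CPM and was lower than wild-type replicates 5 and 6 at 19 regions, 0.349% against 0.0584% of all regions, and higher at 4 (0.0357% of all regions), with a median of -0.09. With all 4 wild-type libraries as the reference 146 were lower, and without replicate 1 or 2 of the clone or wild-type replicate 5 the count was 4, 8 or 9. A single region, chr1:6928858-6929635, had no read in either SMARCC2 library and 7.09 and 7.43 CPM in wild-type replicates 5 and 6.

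The paralogue ARID1B was knocked out in clones 5 and 7. Clone 7, with 5.67 and 5.86 CPM, was lower than the other set-1 knockouts at 1015 regions, 18.6% against 5.48%, and higher at 1254, 23% against 10.6%. Clone 5, with 6.66 and 7.32 CPM, was lower than wild-type replicates 5 and 6 at 128, 2.35% against 0.205%, and higher at 4 (0.0701% of all regions), with a median of -0.22. Without replicate 1 or 2 of clone 5 the count was 53 or 82, and without wild-type replicate 5 or 6 it was 79 or 70. Lower in both clones were 47 regions, 36.7% of the first list of 128 and 4.63% of the 1015. Of all 5450 regions, 18.6% were lower in clone 7 and 2.35% in clone 5. Over these 5450 the fold changes of the clones had a Pearson r of 0.0035 (rho -0.047). The clones were tested against different references, and their sets differ as well, so the clone and the set cannot be told apart. At chr21:28419401-28420301, where wild type had 26.6 to 39.4 CPM, both clones were low: clone 7 had 0.880 and 0.888 CPM (-4.01 ± 0.27, adjusted p = 7.66e-29) and clone 5 had 10.8 and 11.4 CPM (-1.83 ± 0.22, adjusted p = 1.37e-09). At chr4:23819590-23820298 clone 7 had 28.3 and 26.9 CPM, clone 5 5.94 and 5.96 CPM and wild type 3.78 to 6.51 CPM.

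BCL7B is a small accessory subunit. Against the other set-1 knockouts clone 8 was lower at 308 regions, 5.65% against 2.52%. It was higher at 1491, 27.4% against 7.94%, the most of the 18 set-1 clones besides SMARCC1 that were tested. Clone 10 was lower than wild-type replicates 5 and 6 at 243 regions, 4.46% against 0.55%, and higher at 4 (0.192% of all regions). The number lower was 159 with all 4 wild-type libraries as the reference, 75 or 59 without replicate 1 or 2 of the clone and 81 or 126 without wild-type replicate 5 or 6. In both clones 30 regions were lower, 12.3% of the 243 and 9.74% of the 308. Of the whole list, 5.65% were lower in clone 8 and 4.46% in clone 10.

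Taken over the 18 remaining set-1 clones, the regions were called in both directions. Each clone was tested against the mean of the other set-1 knockouts, with SMARCC1 among them and the clones of the rule left out. The number lower was 23 to 1015 (median 145) and the number higher 74 to 1491 (median 351.5). The share of the 5450 regions that was lower lay above the share of all regions in 18 of 18 clones, and so did the share that was higher. These regions were more accessible than the other eligible regions, with medians of 8.00 and 4.09 CPM in the wild-type libraries of the second set. More counts make a call easier in either direction, and the shares of these clones were not set out by accessibility. Its part in both excesses was therefore not tested. More regions were higher than lower in 15 of the 18, and the median log2 fold change ran from -0.23 for ARID2 clone 9 to 0.26 for BCL7B clone 8. Leaving out 1 replicate of each clone lowered the median number of regions lower from 145 to 50 or 36. These clones share their comparison groups, so a clone with many changes enters the reference of every other.

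Of the other core and accessory subunits most had more regions higher than lower. The reference is the mean of the other set-1 knockouts, with SMARCC1 among them, so higher is not measured from wild type. The 42 libraries of knockouts other than SMARCA4, ARID1A and SMARCC1 had medians of 4.97 to 7.65 CPM (median 6.67). Wild-type replicates 1 and 2 had 7.19 and 7.06 CPM. DPF2 clone 4 was higher at 1097 regions, 20.1% against 4.53%, and lower at 148, 2.72% against 1.18%. SMARCD1 clone 6 was higher at 799, 14.7% against 2.82%, and lower at 321, 5.89% against 1.73%. ACTB clone 10 was higher at 602, 11.0% against 4%, and lower at 453, 8.31% against 1.78%. SMARCD3 clone 12 was higher at 531, 9.74% against 1.53%, and lower at 70, 1.28% against 0.691%. BCL11B clone 10 was higher at 449, 8.24% against 1.33%, and lower at 45, 0.826% against 0.515%. BCL11A clone 10 was higher at 315, 5.78% against 1.15%, and lower at 29, 0.532% against 0.374%. SMARCD2 clone 10 had more lower, 497 or 9.12% against 1.59%, and 312 higher, 5.72% against 2.34%. SMARCA2, the ATPase that can stand in for SMARCA4, was lower at 127 regions in clone 12, 2.33% against 0.57%, and higher at 217, 3.98% against 0.727%. DPF3 clone 1 was lower at 23 regions, 0.422% against 0.186%, and higher at 205, 3.76% against 0.486%. DPF1 clone 11 was lower at 61, where 0.219% of all regions were, and higher at 74, 1.36% against 0.249%. BCL7A clone 10 was lower at 98, 1.80% against 0.427%, and higher at 145, 2.66% against 1.17%.

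Fewer regions were called lower in each of the PBAF subunit clones below than in ARID2 clone 9. PHF10 clone 11 was lower at 231 regions, 4.24% against 0.787%, and higher at 159, 2.92% against 0.951%. BRD7 clone 10 was lower at 254, 4.66% against 1.07%, and higher at 413, 7.58% against 2.17%. PBRM1 clone 10 was lower at 142, 2.61% against 0.752%, and higher at 212, 3.89% against 0.945%. BRD9, of the non-canonical complex, was lower at 105, 1.93% against 0.874%, and higher at 388, 7.12% against 1.34%. Single regions could still be lost in 1 such clone. At chr1:240798814-240799516 the PHF10 clone had 2.47 and 1.86 CPM against 15.4 to 18.8 CPM in the 4 wild-type libraries (-3.24 ± 0.22 against the other knockouts, adjusted p = 3.00e-27, edgeR). In that region the SMARCA4 knockouts had 2.43, 3.49, 5.62 and 5.25 CPM and the ARID1A knockouts 10.4, 10.0, 8.81 and 7.17 CPM. At chr16:80079970-80080676 ARID2 clone 9 had 0.518 and 1.08 CPM and BCL7B clone 8 2.39 and 1.10 CPM, where wild type had 12.9 to 17.0 CPM.

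The rule used neither width nor position, but it did use the wild-type CPM of the regions. Their median width was 737 base pairs against 654 for the other eligible regions and 728 for the 2257 regions lost without SMARCA4 alone, and their median level in wild-type replicates 5 and 6 was 8.00 against 4.09 CPM. By CPM in wild-type replicates 5 and 6, they made up 11.8% of eligible regions of 8 to 16 CPM and 8.03% of those of 16 to 32 CPM. Above 32 CPM they made up 1.73% and below 2 CPM 1.00%. The rule sets a minimum wild-type CPM and adds a value before the log. A weak region must therefore lose a larger part of its CPM to be taken. The part of the rule in the low share of weak regions was not tested. By width the share was highest, 8.89%, between 800 and 1000 base pairs and 2.28% above 1500.

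Within 500 kb on either side the median region had 53 other accessible regions, and other eligible regions had 60. The regions lost without SMARCA4 alone had 50, fewer than the list, and those lost without ARID1A alone had 59. The share of eligible regions that belonged to the list was 6.93% on chromosome 13 and 6.43% on chromosome 4, but 1.91% on chromosome 17, 1.19% on chromosome 22 and 0.601% on chromosome 19. Over the 22 autosomes this share and the median number of neighbours had a Pearson r of -0.73 and a Spearman's rho of -0.66, given as a description since chromosomes share their libraries and differ in base composition.

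The regions lay close to each other. Of the 5450, 731 had another one within 10 kb, 13.4%, where 3.64% of the other eligible regions had one that near. Within 100 kb the shares were 50.4% and 28.9%. The regions lost without SMARCA4 alone had one within 10 kb in 7.18% and those lost without ARID1A alone in 5.10%. The densest stretches held 7 regions each, at chr2:218114583-218200025 and chr13:53816041-53886195, in both of which 9 regions of any kind lie. The next, chr3:138972-209237, held 6, which had a median log2 fold change of -2.43 in the SMARCA4 knockout of the knockdown table and -1.39 in SMARCC1 clone 12, where 6 of 6 were lower.

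Neighbouring regions moved together in the other knockouts. For pairs less than 10 kb apart (392 pairs) the fold changes had a Pearson r of 0.34 to 0.65 in the 18 other set-1 clones, with a median of 0.52. The median r was 0.37 at 10 to 100 kb (1519 pairs), 0.18 at 100 kb to 1 Mb, 0.04 at 1 to 3 Mb and 0.01 at 10 to 20 Mb. For the other eligible regions, which have fewer counts, the medians were 0.17, 0.10, 0.06, 0.02 and 0.00. In the SMARCA4 knockdown r was 0.33 below 10 kb and 0.17 at 10 to 100 kb, where the other eligible regions had 0.25 and 0.18, so that at the longer distance the regions of the list were no more alike than the rest.

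**Figure D4:**
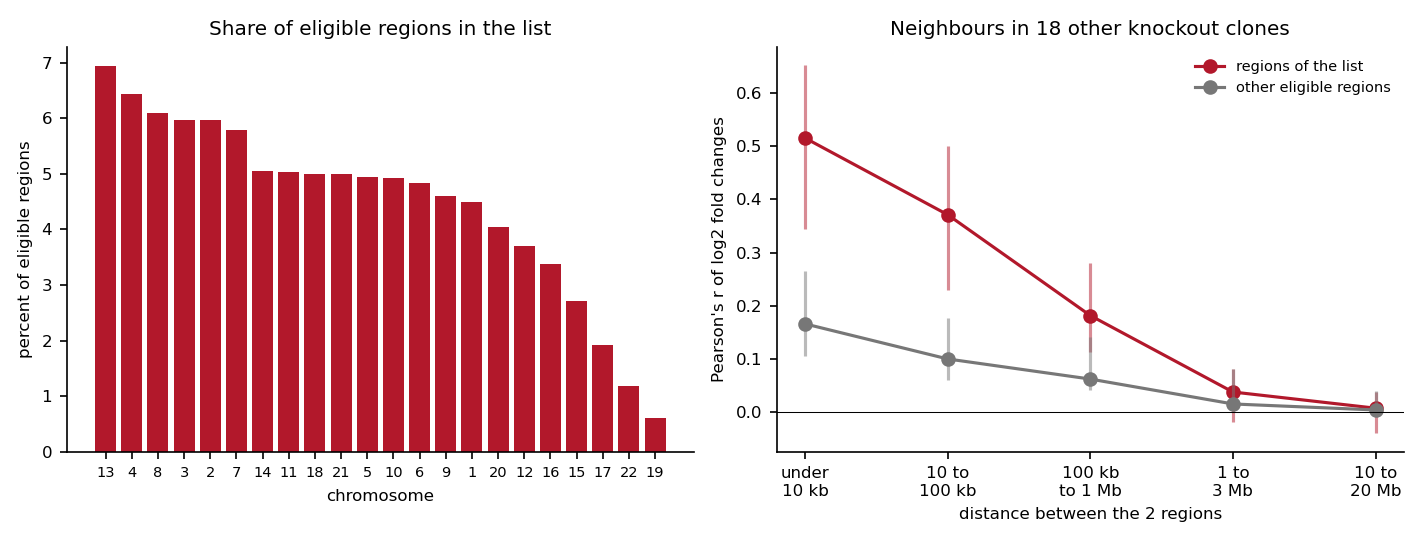
Left, percent of eligible regions on each autosome that belong to the list, sorted from chromosome 13 (6.93%) to chromosome 19 (0.601%). Right, Pearson's r between the log2 fold changes of 2 regions by their distance, as the median (points) and range (lines) over 18 knockout clones, for the regions of the list (red) and the other eligible regions (grey). The red median runs from 0.52 below 10 kb to 0.04 at 1 to 3 Mb.

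In a few neighbourhoods most regions of the list were lower in at least 1 clone outside the rule. Of 37 windows of 3 Mb with at least 15 of the regions, 5 had over 60% of these lower in a clone other than SMARCC1. These 5 and 1 more are described, chosen after values were seen, and the other one starts at the Mb mark before the lowest region of the ARID2 knockout. Where 2 median CPM are given for a window, the lower library comes first. Between 162 and 165 Mb of chromosome 3 lay 19 of the regions, with medians of 4.41 and 5.64 CPM in wild-type replicates 1 and 2 and 1.28 to 1.88 CPM in the SMARCA4 and ARID1A knockouts. ACTB clone 10 had 1.61 and 1.71 CPM there and ARID1B clone 7 1.33 and 1.47 CPM, and 17 of 19 regions were lower in each. The SMARCC1 clone had 1.63 and 1.74 CPM and 16 lower. ARID1B clone 5 had 5.94 and 8.35 CPM and BCL7B clone 8 5.62 and 7.46 CPM, with 11 regions higher in the latter. The 67 other eligible regions of the window had median fold changes of -0.32 in ACTB clone 10 and -0.29 in ARID1B clone 7, where the 19 had -1.62 and -1.72.

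Between 36 and 39 Mb of chromosome 11 lay 27 regions. ARID1B clones 5 and 7 were both low there, with 2.52 and 2.56 and with 1.37 and 1.42 CPM, and SMARCD1 clone 6 had 1.14 and 1.81 CPM. Lower were 14, 17 and 15 of the 27, with medians of -2.07, -1.23 and -1.41, where the other eligible regions had -0.22, -0.19 and -0.23. The SMARCC1 clone (2.30 and 2.66 CPM) and BRD9 clone 10 (2.46 and 2.64 CPM) were low as well, with 14 and 8 regions lower. In DPF2 clone 4 13 were higher and in SMARCD3 clone 12 11. Wild-type replicates 1 and 2 had 5.17 and 5.93 CPM and replicates 5 and 6 9.82 and 10.8 CPM. Clones of a gene of the rule could differ here: at chr11:37553799-37554905 SMARCA4 clone 4 had 1.46 and 1.13 CPM and clone 6 15 and 16.3 CPM, ARID1A clone 10 had 1.88 and 1.98 and clone 3 10.6 and 14.0 CPM, and wild type had 17.5 to 24 CPM. In the knockdown table the SMARCA4 knockout had 18.6 ± 1.96 CPM at this region (SD, n = 2) and the wild-type control 28.1 and 23.2 CPM.

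Between 146 and 149 Mb of chromosome 7, which holds the lowest regions of the ARID2 knockout, lay 14 regions. Many clones had a low median CPM there. Outside the rule the lowest was SMARCC1 clone 12 (1.44 and 1.79 CPM, 7 of 14 lower), followed by ARID2 clone 9 (1.61 and 1.94), BCL7A clone 10 (1.81 and 2.27) and PHF10 clone 11 (2.06 and 2.47). The clones of BCL7B, SMARCD1, SMARCD2, PBRM1, BCL11A and BRD7 had 2.56 to 3.06 CPM, beside wild-type levels of 6.49 and 7.05 in replicates 1 and 2 and 8.24 and 9.68 in replicates 5 and 6. BCL7B clone 10 was lower at 8 of 14 and ARID2 clone 9 at 6. Their fitted medians were -1.72 and -1.08, where the 89 other eligible regions had -0.38 and -0.16. PBRM1 clone 10 was lower at 4, SMARCD1 clone 6 and SMARCD2 clone 10 at 3 each, and BCL7B clone 8 at 1. BCL11A clone 10 was lower at 2 and higher at 1, and BRD7 clone 10 was lower at 0 and higher at 3. High were ARID1B clone 7 (8.34 and 10.6 CPM), SMARCA2 clone 12 (8.33 and 8.77) and ACTB clone 10 (7.88 and 8.47), with 8, 9 and 8 regions higher. In the knockdown table ARID2-knockout cells had 2.11 and 2.81 CPM and ARID2 knockdown in wild-type cells 8.95 and 9.18 CPM, beside 6.43 and 7.54 CPM in the wild-type control. The fitted median was -1.40 in the ARID2 knockout, with 5 of 14 lower, and -0.01 in the ARID2 knockdown, with 0 called. The other eligible regions of the window had -0.36 and -0.11.

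Of the remaining windows, ARID1B clone 7 was lower at 15 of 18 regions between 123 and 126 Mb of chromosome 2. The 24 other eligible regions of that window were low in this clone too, with a median of -1.09 beside -1.61. The same clone was lower at 11 of 15 between 27 and 30 Mb of chromosome 21, where it had 1.76 and 1.78 CPM and wild type 6.14 to 7.58 CPM, with medians of -1.40 for these regions and -0.30 for the others. That window holds the region of largest loss, and ARID2 clone 9 was lower at 8 of its 15 regions and DPF2 clone 4 was higher at 6. SMARCD2 clone 10 was lower at 11 of 17 regions between 21 and 24 Mb of chromosome 11, and BCL7B clone 8 was higher at 10 of them.

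**Figure D5:**
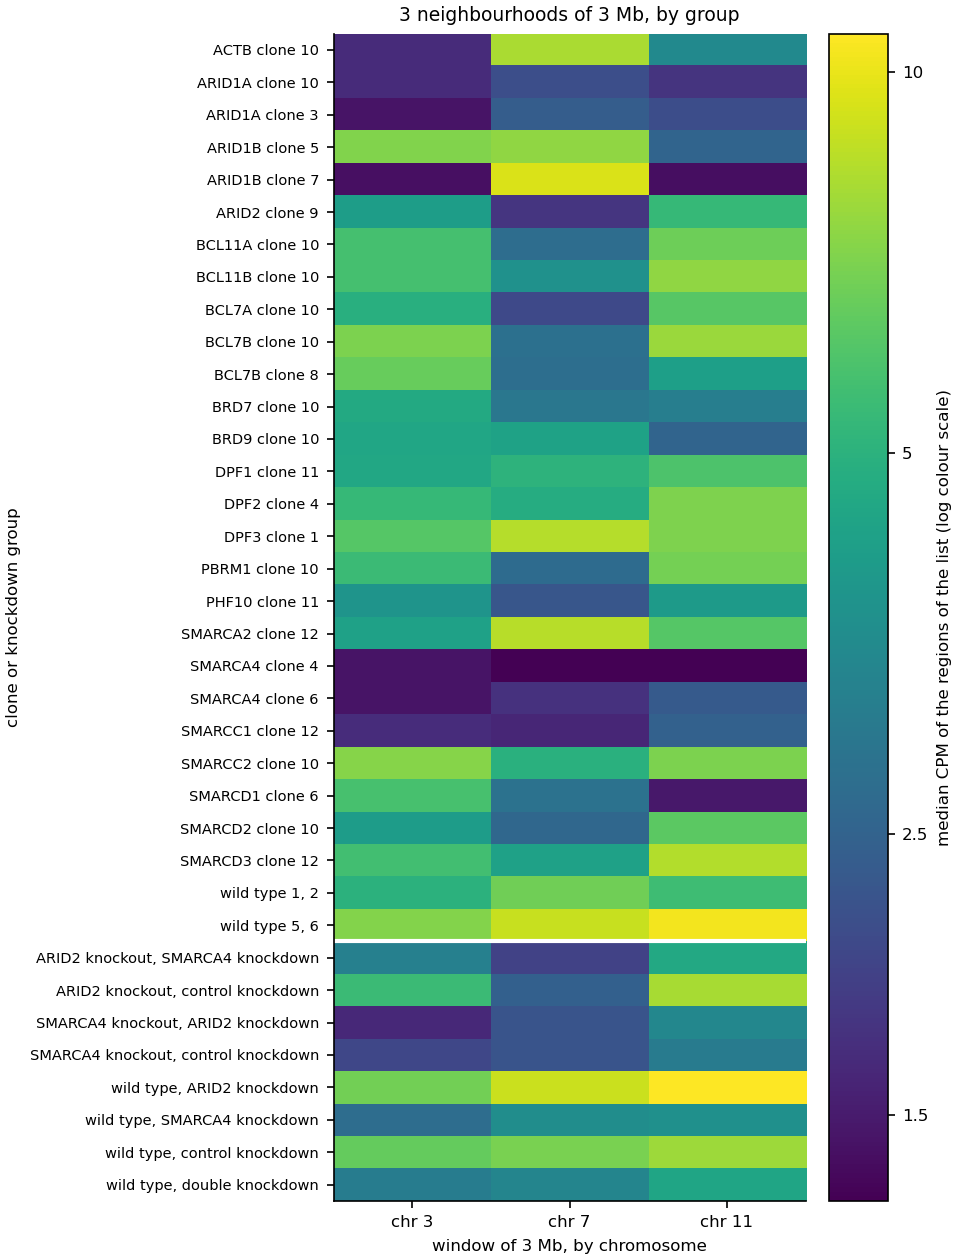
Median CPM (colour, log scale) of the regions of the list in 3 windows of 3 Mb, on chromosomes 3, 7 and 11 (columns), in each clone of the knockout table and, below the white line, each group of the knockdown table (rows, means of 2 libraries). Dark cells are low: the SMARCA4 and ARID1A clones are dark in all 3 columns, ARID1B clone 7 on chromosomes 3 and 11 and ARID2 clone 9 on chromosome 7.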

How the data were processed

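ATAC-seq used the TDE1 transposase in a mix with digitonin, per the labels' protocols. The values deposited by the authors were raw counts, with 1 row per region and 1 column per library. Tools listed in the submitters' processing notes were MACS2 2.1.1.20160309, Picard 1.118 and Bowtie2 2.2.4, with the build hg19. How regions were merged and whether starts count from 0 or 1 is not given in the sources used here. Of 74 samples in the labels 72 had a column, and 2 columns of per-library values were not used. Counts were divided by library totals (CPM). They were tested with edgeR 4.0.16 in R 4.3.3: quasi-likelihood, TMM, default expression filter, Benjamini-Hochberg adjustment over all regions, threshold 0.05, 2-sided. Clones were the groups of the knockout fit, and the knockdown fit had 8 groups. The test was checked on simulated data. Alternatives were DESeq2 1.42.0, RLE scaling, no filter, a replicate block, other references and leaving out each library. Named regions were those with the largest falls, those at the rule's threshold, and those with the largest fold changes among called regions above the median CPM whose libraries did not overlap. Members and lists were chosen with earlier results of these data known. Gene annotation and sequence motifs were not used here, since the reference at hand is of another build. Reads carry no molecular identifiers, so depth gives counting error only.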

Additional observations from a re-analysis of the deposited data

Results flagged for a closer look

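Among 86 sets of 4 wild-type values tested, 3 held a library apart from the others by Dixon's criterion, where chance gives about 1 in 20. The gap between the lone library and its nearest neighbour was divided by the range of the 4 and set against Dixon's critical value. At chr2:229311348-229312701 it was 0.856, with 12.5, 7.44, 12.1 and 11.8 CPM in wild-type replicates 1, 2, 5 and 6. At chr10:19787471-19788664 it was 0.923, with 8.94, 6.05, 6.27 and 6.27 CPM. At chr9:82590646-82592112 it was 0.962, with 12.8, 19.9, 13.1 and 12.8 CPM, and SMARCC1 clone 12 had 0.820 and 0.384 CPM there.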

How the results depend on the processing

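The main results are counts or shares, which cannot change sign. No called fold change of a named region changed sign under any alternative. Apart from those that leave out a library, 69 of the alternative values stayed within 1.5 times the main one and 12 did not; leaving out a library moved 31 values by more and 71 by less. A fall of at least 1.5 left 934 regions, of which 6.10% were lower in ARID1B clone 5, 9.10% in BCL7B clone 10, 0.642% in SMARCC2 clone 10, 7.39% in the ARID2 knockout of the knockdown table and 4.39% with SMARCA4 knockdown in ARID2-knockout cells. With all wild-type libraries as the reference, 2.92% of the regions were lower in BCL7B clone 10 and 2.68% in SMARCC2 clone 10. DESeq2 called 1637 regions lower in the SMARCA4 knockdown and 3052 in the SMARCA4 knockout.

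With the replicate number as a block, 9.86% of the regions (537) were lower in the ARID2 knockout, 11.4% (621) with SMARCA4 knockdown in ARID2-knockout cells, 0.0367% (2) with ARID2 knockdown in SMARCA4-knockout cells, and 0.0184% (1) had a different SMARCA4 knockdown effect. The labels do not say that numbers mark a shared day. In the knockdown table deviations of same-numbered libraries correlated above 0.1 in 25 of 28 pairs of groups (0.058 to 0.440), and all 8 groups correlated best with their own number; in the knockout table the median was 0.017 over 351 pairs. No paired analysis was possible for the set-2 clones, because they share no replicate number with wild-type replicates 5 and 6.

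Leaving out a library gave these ranges of the percent of regions lower: SMARCA4 knockout 38.0 to 48.5, SMARCA4 knockdown 16.6 to 20.9, double knockdown 9.98 to 16.4, SMARCA4 knockdown in ARID2-knockout cells 0.183 to 2.28, ARID2 knockout 0.716 to 1.21, ARID2 knockdown in SMARCA4-knockout cells 0 to 0.0367, SMARCC1 33.7 to 59.3, ARID1B clone 5 0.972 to 1.5, BCL7B clone 10 1.08 to 2.31, SMARCC2 0.0734 to 0.239, and the median over the other knockouts 0.661 to 0.917. The number of regions was 5231 to 6768. With no library left out, it was 7666 with 0.1 added before the log and 4637 with TMM-scaled CPM. With wild-type replicates 1, 2, 5 and 6 as the reference it was 8061, of which 4398 are among the 5450. A lone library in an arm was assumed to vary like the other groups, and the cause of these moves was not tested. Of the named values, 52 lost their call and 336 kept it without a library, and 5 lost and 76 kept it under DESeq2. How far depth limits the calls below 4 CPM was not tested.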
